A study of Mus musculus with 55 samples.

Results

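The interleukin-1 family was examined in the lungs of mice given arsenic (As), dexamethasone or both, on 2 diets. The family was taken as 10 genes fixed by name (Il1a, Il1b, Il18, Il33, Il1r1, Il1rap, Il1rl1, Il1r2, Il1rn and Casp1), and each gene was read from every array probe set whose annotation carried its symbol and no other. These were 16 of 45037 probe sets and covered 9 of the 10 genes. Il1rap had 5 probe sets, with means of 6.10, 4.18, 4.14, 3.25 and 2.85 over all arrays used, Il1rn had 3, with means of 6.26, 6.13 and 4.32, Il1r1 had 2 and the other genes had 1 each, and Il1rl1, the receptor for interleukin-33, was not analysed here. Where a gene had several probe sets, values are those of the brightest, the one with the highest mean, and the others are told apart below by their means.

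Interleukin-1 alpha (Il1a) and interleukin-1 beta (Il1b) are inflammatory cytokines that bind the type 1 receptor (Il1r1), which then recruits the accessory protein encoded by Il1rap and passes the signal through adaptor kinases to the transcription factor NF-kB. The pathway has its own brakes: Il1rn encodes a receptor antagonist that occupies the receptor without signalling, and Il1r2 encodes a decoy receptor, abundant on neutrophils, that binds the cytokine and sends no signal. Caspase-1 (Casp1), activated in inflammasomes, cuts the precursors of interleukin-1 beta and interleukin-18 (Il18) into their active forms, whereas interleukin-33 (Il33) is a nuclear protein of barrier tissues such as lung that is released from damaged cells and uses Il1rap as part of its own receptor. In the lung these genes are known from macrophages, neutrophils, alveolar epithelium and endothelium, and glucocorticoids such as dexamethasone are known to restrain many inflammatory cytokines.

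RNA of whole lung was measured on 1 Affymetrix Mouse Genome 430 2.0 array per mouse, in 55 male C57BL/6 mice (C57BL/6J in the article) that were 6 weeks old at the start and had 2 weeks of acclimation. Injected mice ate the purified AIN-76A diet and received, in normal saline into the peritoneum, dexamethasone with sodium arsenite (5 mice), dexamethasone (5 mice), sodium arsenite (5 mice) or saline (5 mice), at 1 mg/kg of each agent, 8 h before the lungs were taken. Mice on the diet labelled LRD-5001 (LRD) had sodium arsenite for 5 weeks at 10 ppb in food (5 mice), or were controls (4 mice), or had 10 ppb (5 mice) or 100 ppb (3 mice) in drinking water. Uninjected mice on AIN-76A had the same exposures, with 5 mice at 10 ppb in food, 5 controls, 4 mice at 10 ppb in water and 4 mice at 100 ppb in water. The article describes the uninjected AIN-76A mice, and the LRD and injected mice are known here from the sample labels, which call each array a biological replicate.

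Values are log2 intensities after robust multiarray averaging (RMA), so a difference of 1 is a 2-fold difference. They compare 1 probe set between mice and not 1 gene with another. Array medians ran from 4.245 to 4.369 in the 52 arrays used. Arrays of arsenite injection mouse E, AIN 100 ppb water mouse B and LRD 10 ppb water mouse C correlated with the mean of their groups at 0.265, 0.891 and 0.954, against at least 0.967 for every other array, and were left out, which left 4, 3 and 4 mice in those groups. Lung identity was clear from surfactant and other alveolar type II genes, whose group means ran from 12.17 to 12.6. Of 7 genes known to be induced by glucocorticoids, 0 passed the test in dexamethasone against saline mice and their median change was -0.04, and of 6 genes known to be induced by arsenite, 0 passed it in arsenite against saline mice. Of all probe sets, 0.626% were called with dexamethasone and 0% with arsenite, each against saline. The known genes therefore did not show either injection at the threshold against saline, and the injected groups stand on their labels. Why they did not was not tested. With mice pooled by dexamethasone, 7 of the 7 glucocorticoid genes had positive changes, with a median of 0.21, and 0 passed. The saline mice themselves had a Fkbp5 level higher by 1.38 than the uninjected AIN-76A controls (limma adjusted p = 0.999). Thymus and T cell genes averaged 8.49 in saline mouse E, against 4.55 to 4.85 in the other saline mice, and 10.24 in AIN 10 ppb water mouse E, against 4.77 to 5.67 in the other mice of that group. In whole tissue, fewer cells of a type and less RNA per cell cannot be told apart.

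Promoter windows are shown for the 4 members that most of the results below turn on. Each window runs from 250 bases before to 50 bases after a RefSeq start site in GRCm38.p6, is written 5' to 3' on the gene's strand, and has matches to 4 short motifs in capitals. The motifs, searched on both strands, were the TATA box TATAAA (in 13.6% of 32851 windows of all genes), the AP-1 motif TGANTCA (7.81%), an NF-kB motif of GGG and TCC with any 4 bases between them (19.2%) and a glucocorticoid receptor motif ACANNNTGT (6.85%). Il1b lies at chr2:129371090-129371389 on the minus strand and has a TATA box at position -31 from its start site. The Il1rn window at chr2:24336610-24336909 on the plus strand, 1 of its 3 windows, has an AP-1 match at -141 and an NF-kB match at -4. Il1rap at chr16:26581455-26581754 on the plus strand has an NF-kB match at -118, and Casp1 at chr9:5298267-5298566 on the plus strand has no match. Of the 15 windows of the 10 genes, 6 held the TATA box, 5 the NF-kB motif, 2 the AP-1 motif and 1, of Il1rl1, the glucocorticoid receptor motif. The other 2 Il1rn windows overlap and share 1 NF-kB match, which is counted in both. A match describes the letters only.
Il1b: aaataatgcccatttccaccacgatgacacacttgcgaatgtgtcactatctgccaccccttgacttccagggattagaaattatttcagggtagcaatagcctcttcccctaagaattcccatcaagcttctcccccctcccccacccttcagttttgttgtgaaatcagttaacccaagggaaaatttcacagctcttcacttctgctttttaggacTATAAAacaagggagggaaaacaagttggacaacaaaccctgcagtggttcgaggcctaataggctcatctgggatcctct
Il1rn: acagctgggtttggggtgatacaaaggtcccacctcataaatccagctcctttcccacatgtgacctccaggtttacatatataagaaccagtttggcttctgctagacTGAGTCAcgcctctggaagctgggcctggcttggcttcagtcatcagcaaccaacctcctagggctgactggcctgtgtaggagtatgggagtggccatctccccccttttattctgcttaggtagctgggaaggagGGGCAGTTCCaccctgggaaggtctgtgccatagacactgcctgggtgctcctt
Il1rap: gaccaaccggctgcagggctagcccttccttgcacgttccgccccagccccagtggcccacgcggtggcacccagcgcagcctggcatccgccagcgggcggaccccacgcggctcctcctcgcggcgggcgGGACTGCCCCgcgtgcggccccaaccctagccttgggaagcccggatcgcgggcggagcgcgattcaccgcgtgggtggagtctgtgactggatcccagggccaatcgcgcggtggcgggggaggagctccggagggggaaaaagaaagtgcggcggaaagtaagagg
Casp1: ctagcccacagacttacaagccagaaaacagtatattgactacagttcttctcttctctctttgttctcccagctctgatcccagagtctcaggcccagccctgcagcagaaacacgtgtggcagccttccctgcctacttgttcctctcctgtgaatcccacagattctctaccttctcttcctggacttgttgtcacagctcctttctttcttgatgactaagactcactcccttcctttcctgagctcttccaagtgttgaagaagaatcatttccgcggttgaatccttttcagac

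Il1b varied most widely among the cytokines of the family. Its group means were highest in arsenite-injected mice, at 10.01, and lowest in dexamethasone-plus-arsenite mice, at 7.95. Il1r2 had a still wider spread, between 7.85 in AIN 100 ppb water mice and 5.13 in LRD controls. Il33, Il18 and Il1r1 were steadier, and the highest and lowest group means were 9.44 (LRD controls) and 8.65 (AIN 10 ppb water) for Il33, 9.09 (LRD 10 ppb food) and 8.60 (AIN 10 ppb water) for Il18, and 7.75 (AIN controls) and 7.25 (AIN 10 ppb water) for Il1r1. Il1a was dim, with a mean of 3.93 over the 52 arrays and 44.9% of all probe sets below it, so its values lie near the array's floor. With the 12 groups placed in order of their means, all 11 steps between neighbours were under the SD within groups for Il1a, Il1b, Il1r1, Il1r2, Il18 and Casp1, and 10 of 11 steps for Il1rn, Il1rap and Il33. The SD within groups was 0.918 for Il1b, 1.15 for Il1r2 and 0.357 for Il1rn.

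**Figure D1:**
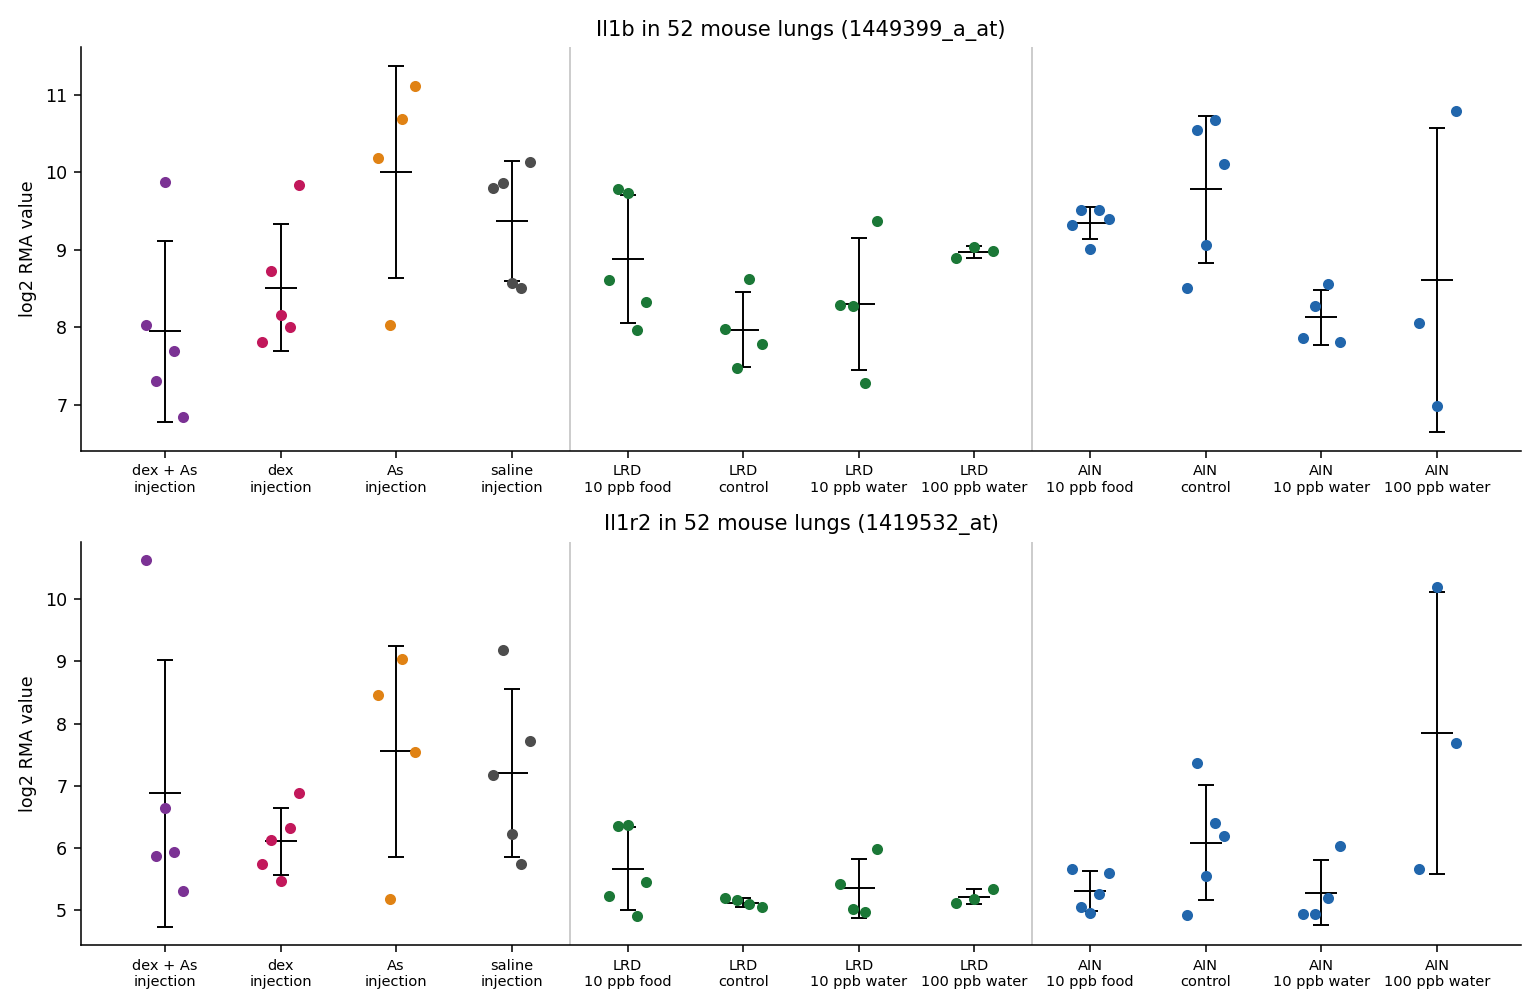
Log2 RMA values of Il1b (upper panel) and Il1r2 (lower panel) in each of the 52 mice, by group, with the mean and SD as bars; vertical lines part injected, LRD and uninjected AIN-76A mice. Il1b was above 10 in 3 of 4 arsenite-injected mice, and Il1r2 reached 10.62 in 1 dexamethasone-plus-arsenite mouse while LRD mice stayed between 4.91 and 6.37.

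The injections asked how a single dose of a glucocorticoid, of arsenite, or of both changes lung RNA within hours. Il1b was the cytokine with the widest differences. In dexamethasone-plus-arsenite mice it measured 8.03, 7.31, 9.88, 7.69 and 6.84, in dexamethasone mice 7.81, 8.73, 8.16, 8.01 and 9.84, in arsenite mice 10.19, 8.03, 10.69 and 11.11, and in saline mice 9.80, 9.86, 8.57, 8.51 and 10.13. Among injected mice, values above 10 were seen only in arsenite and saline mice, but all 4 groups overlapped, since 1 mouse in each dexamethasone group came close to 10 and 1 arsenite mouse lay near 8. The limma change of Il1b was -2.05 (SE 0.621, adjusted p = 0.16) for dexamethasone plus arsenite against arsenite, -1.42 (SE 0.586, adjusted p = 0.393) against saline, -0.86 (adjusted p = 0.761) for dexamethasone against saline and 0.63 (adjusted p = 0.883) for arsenite against saline. None of these passed the threshold, and exact permutation tests over the mice gave p of 0.0556, 0.0635, 0.111 and 0.397 for the same comparisons, with 5 of 5 dexamethasone-plus-arsenite mice below the arsenite mean. Without arsenite mouse B the change of Il1b against arsenite was -2.71 (limma adjusted p = 0.037), and without dexamethasone-plus-arsenite mouse D it was -2.54 (limma adjusted p = 0.0422). Those are the mice whose Il1b lay nearest to the other group. For arsenite against saline the change was 1.29 without mouse B (limma adjusted p = 0.598). Il1b was higher in 2 of 2 shared batches, which do not hold mouse B. With the array of arsenite mouse E added back, the change was -0.24 (limma adjusted p = 0.86), and that array correlated with its group at 0.265. On that array the SD over probe sets was 1.172, against at least 2.294 in the arrays used. Its alveolar type II genes averaged 5.2, against 12.28 to 12.57 in the other arsenite mice, so bright genes read low on it. The value of -0.24 therefore cannot decide the direction of this change, and the size was not settled.

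The other cytokines differed little after injection. Il33 measured 9.07, 8.89, 9.29, 9.33 and 8.82 in dexamethasone-plus-arsenite mice and 9.44, 9.28, 9.39, 9.39 and 9.34 in dexamethasone mice. The dexamethasone mice lay close together, and all of them stood above 3 of the 5 mice that had arsenite as well. The change was -0.29 (limma SE 0.131, adjusted p = 1.0, exact permutation p = 0.0238). The difference between the dexamethasone effect with and without arsenite was -0.45 for Il33 (SE 0.191, unadjusted p = 0.0288, limma adjusted p = 0.999). It turned to 0.03 when the arrays of low quality were added back. Il18 differed from saline mice by -0.03 with both agents, -0.13 with dexamethasone and -0.04 with arsenite, with limma SE of 0.167 to 0.177. Il1a was higher by 0.20 in dexamethasone mice and by 0.17 in arsenite mice, both within the spread of this dim probe set.

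Il1rap was the signalling receptor chain that differed most. On its dim probe set of mean 4.14 it measured 4.36, 4.59, 5.13, 4.94 and 4.17 in dexamethasone-plus-arsenite mice, 4.37, 4.64, 4.18, 4.64 and 4.54 in dexamethasone mice, 4.33, 3.41, 4.53 and 3.81 in arsenite mice and 3.95, 4.02, 3.74, 4.36 and 3.99 in saline mice. All 5 mice of each dexamethasone group lay above the saline mean, and the groups overlapped at their edges. Against saline the change was 0.63 with both agents (SE 0.2, limma adjusted p = 0.196) and 0.46 with dexamethasone (SE 0.2, limma adjusted p = 0.485). The exact permutation p of these 2 changes were 0.0238 and 0.0159. The brightest Il1rap probe set, of mean 6.10, gave other values. It was higher by 0.47 with both agents (SE 0.186, limma adjusted p = 0.37) and by 0.46 with arsenite (SE 0.198, limma adjusted p = 0.698), but by 0.24 with dexamethasone, so the arsenite mice were high on this probe set and not on the dim one. On the Il1rap probe set of mean 4.18, dexamethasone mice averaged 3.91, below the 4.185 of saline mice, and mice with both agents averaged 4.26. Il1r1, the receptor chain that binds the cytokine, changed by 0.07 with dexamethasone and its groups overlapped almost entirely.

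**Figure D2:**
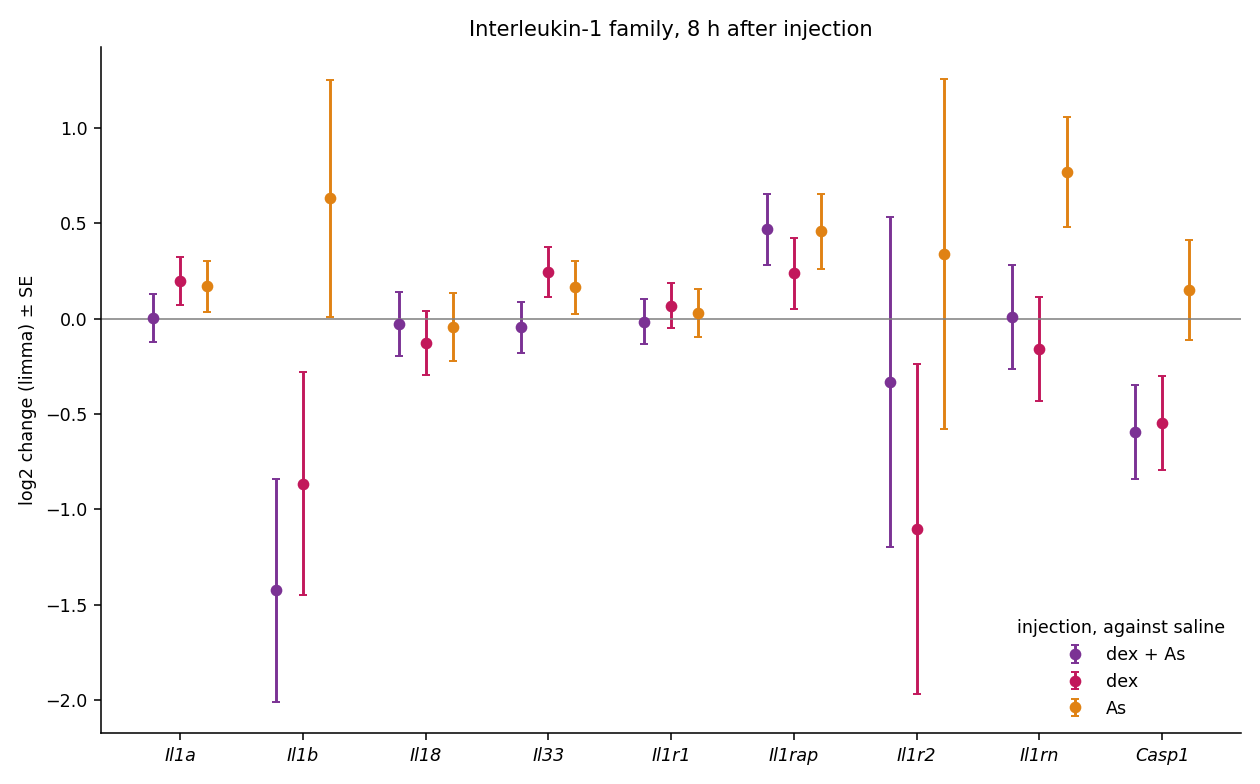
Limma log2 changes (points) with their SE (bars) of the 9 genes, 8 h after injection, for dexamethasone plus arsenite, dexamethasone and arsenite, each against the same saline mice. Il1b and Casp1 lie below 0 in both groups that had dexamethasone, and Il1rn lies highest with arsenite at 0.77; no change passed the adjusted threshold.

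The receptor antagonist Il1rn was highest after arsenite. It measured 6.73, 6.29, 7.57 and 7.24 in arsenite mice and 6.62, 6.22, 5.59, 5.86 and 6.65 in saline mice, with 4 of 4 arsenite mice above the saline mean. The change was 0.77 (SE 0.29, limma adjusted p = 0.663, exact permutation p = 0.0794). On the dimmest Il1rn probe set, of mean 4.32, arsenite mice measured 4.75, 4.49, 5.29 and 4.55, and saline mice 4.38, 4.13, 4.13, 3.97 and 4.35. Here the groups did not overlap, and the change was 0.58 (SE 0.154, limma adjusted p = 0.623, exact permutation p = 0.00794). Across the array, 1.88% of all probe sets were higher without overlap in this comparison, and 1 of the 16 members was. With dexamethasone added to arsenite, Il1rn was lower than with arsenite by 0.76 (SE 0.29, limma adjusted p = 0.311), and 5 of 5 mice lay below the arsenite mean. Monocyte and macrophage genes (11 of 12 listed genes measured) averaged 9.02 to 9.55 in arsenite mice and 8.84 to 9.56 in saline mice. Fat genes (8 of 10 listed genes measured) averaged 4.78 to 6.63 in arsenite mice and 5.42 to 10.02 in saline mice. Saline mice D and E, with fat means of 8.90 and 10.02, had the lowest Il1rn values of their group (5.59 and 5.86). They also had its lowest Il1b values. The part of these cells and of fat in the values was not tested.

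The decoy receptor Il1r2 varied widely within groups, and most arsenite and saline mice lay above every mouse given dexamethasone without arsenite. In dexamethasone-plus-arsenite mice it measured 10.62, 5.88, 6.65, 5.94 and 5.31, in dexamethasone mice 5.74, 6.13, 5.48, 6.32 and 6.88, in arsenite mice 8.45, 5.19, 9.03 and 7.54, and in saline mice 7.17, 9.18, 6.23, 5.75 and 7.72. Mouse A of the dexamethasone-plus-arsenite group stood alone at 10.62, above every other injected mouse. Its neutrophil genes (13 of 14 listed genes measured) averaged 9.25, against 7.14 to 7.48 in the other mice of its group, 7.12 to 7.83 in dexamethasone mice, 7.47 to 9.16 in arsenite mice and 7.43 to 8.99 in saline mice. With that mouse the change against saline was -0.33 (limma adjusted p = 0.966), and without it -1.27 (adjusted p = 0.418), beside -1.10 (SE 0.865, limma adjusted p = 0.816) for dexamethasone without arsenite. Whether the number of neutrophils set these values was not tested.

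Casp1, which activates interleukin-1 beta and interleukin-18, was lower in both groups given dexamethasone, without passing the threshold in either. It measured 5.64, 6.16, 6.37, 5.58 and 6.46 in dexamethasone-plus-arsenite mice, 6.40, 6.44, 5.70, 5.86 and 6.04 in dexamethasone mice, 6.66, 6.40, 7.53 and 6.56 in arsenite mice, and 6.55, 6.24, 6.23, 7.37 and 6.78 in saline mice. All 10 mice given dexamethasone lay below the mean of their comparison group, although the groups overlapped. The change was -0.75 (SE 0.262, limma adjusted p = 0.256) for both agents against arsenite, -0.59 (SE 0.247, limma adjusted p = 0.402) for both agents against saline and -0.55 (SE 0.247, limma adjusted p = 0.508) for dexamethasone against saline. Exact permutation p were 0.0317, 0.0794 and 0.0714 in the same order. Without saline mouse E, which had the highest Casp1 of its group and was high in thymus and T cell genes (8.49), B cell genes (8.29) and fat genes (10.02), the change against saline was -0.41 with both agents (limma adjusted p = 0.626) and -0.36 with dexamethasone (limma adjusted p = 0.672). The part of these tissues in the values was not tested.

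Counted over the 16 probe sets, limma called 0 members in any of these 5 comparisons or in the interaction, while it called 0.626% of all probe sets in dexamethasone against saline, 0.755% in both agents against saline, 0.622% in both agents against arsenite, and 0% in arsenite against saline, in both agents against dexamethasone and in the interaction. At an unadjusted p under 0.05, 1 member was higher and 1 lower with dexamethasone against saline, where 4.03% of all probe sets were higher and 5.01% lower. With arsenite 3 were higher and 0 lower (4.09% and 2.63%), and with both agents 2 were higher and 2 lower (5.19% and 4.7%), each against saline. Both agents against arsenite had 1 higher and 4 lower (4.63% and 5.61%), and both agents against dexamethasone 0 higher and 1 lower (1.18% and 1.1%). The median change of the 9 genes was -0.13 with dexamethasone, 0.17 with arsenite and -0.03 with both agents against saline, where the medians of all probe sets were 0.0044, 0.0119 and 0.005. Against arsenite it was -0.21 with both agents, where that of all probe sets was -0.00645. Over all 16 member probe sets the medians were -0.05 with dexamethasone, 0.16 with arsenite and -0.02 with both agents against saline, and -0.15 with both agents against arsenite.

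When the mice were pooled by dexamethasone, a comparison added after the values were seen, 10 mice that had it stood against 9 that had not. It called 1 of 16 member probe sets and 3.31% of all probe sets. The member was the Il1rap probe set of mean 4.14, which rose to 4.56 ± 0.31 in dexamethasone mice, against 4.02 ± 0.35 without dexamethasone (SD, 10 and 9 mice; change 0.54, SE 0.146, limma adjusted p = 0.0484). All 10 mice were above the mean of the others (permutation p = 0.00221, exact over all divisions of the mice). The call was not stable. It held without dexamethasone-plus-arsenite mouse A or F, dexamethasone mouse C, arsenite mouse A or C or saline mouse E, and was lost without any of the other 13 mice (limma adjusted p up to 0.111), and the brightest Il1rap probe set differed by 0.12 (limma adjusted p = 0.824). Within the 5 array batches the difference of the called probe set was positive in 5 of 5, from 0.23 to 1.18. The Il1rap probe set of mean 4.18 was instead lower with dexamethasone in both arms. It averaged 4.26 with both agents against 4.33 with arsenite, and 3.91 with dexamethasone against 4.185 with saline.

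Casp1 and Il1b came next in the pooled comparison. Casp1 was 6.06 ± 0.35 with dexamethasone and 6.70 ± 0.46 without it, a change of -0.65 (SE 0.18, limma adjusted p = 0.0564), with 10 of 10 mice below the mean of the others and a negative difference in 5 of 5 batches. Il1b was 8.23 ± 1.00 with dexamethasone and 9.66 ± 1.05 without it, a change of -1.46 (SE 0.427, limma adjusted p = 0.0729), with 8 of 10 mice below and a negative difference in 4 of 5 batches. Exact permutation p over the same divisions were 0.00228 for Casp1 and 0.00929 for Il1b. Both lay just outside the threshold, and both crossed it in several of the alternative settings. The difference was -0.46 for Il1rn (limma adjusted p = 0.299) and -0.89 for Il1r2 (limma adjusted p = 0.647), or -1.35 (limma adjusted p = 0.138) without mouse A. The Il1rn probe set of mean 6.13 averaged 6.16 with both agents and 6.21 with dexamethasone. These lay between its means of 6.445 with arsenite and 6.06 with saline. Monocyte and macrophage genes averaged 8.94 and 8.89 in the dexamethasone-plus-arsenite and dexamethasone mice, against 9.23 and 9.20 in arsenite and saline mice, and B cell genes 5.31 and 5.79, against 6.25 and 6.63. Thymus and T cell genes (7 of 8 listed genes measured) ran from 4.12 to 4.53 with both agents and from 4.19 to 4.49 with dexamethasone, against 4.59 to 5.08 with arsenite and 4.55 to 8.49 with saline, so all 10 mice given dexamethasone lay below all 9 others. The part of these cells in the differences was not tested.

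**Figure D3:**
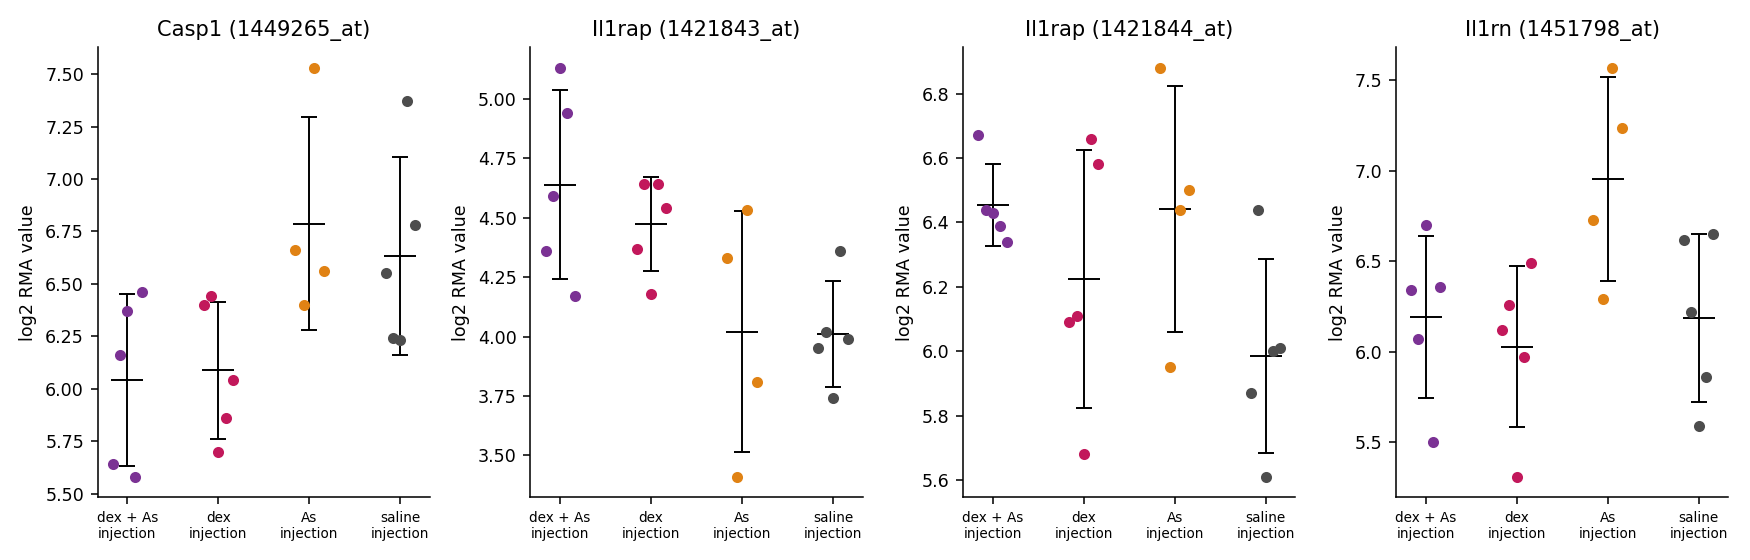
Log2 RMA values of Casp1, of the Il1rap probe sets of means 4.14 and 6.10, and of Il1rn in the 19 injected mice, by group, with mean and SD as bars. Casp1 stays under 6.5 in every mouse given dexamethasone, Il1rap on its dim probe set is at 4.17 or more in those mice, and Il1rn exceeds 7 in 2 arsenite mice only.

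Partner genes of the pathway were read from 5 lists of 68 genes in all, of which 58 were measured. Dexamethasone against saline called 0 higher and 1 lower, Pycard, the adaptor that joins inflammasome sensors to caspase-1. It measured 8.20, 7.91, 7.45, 7.52 and 7.86 in dexamethasone mice and 8.56, 9.05, 9.43, 8.31 and 8.53 in saline mice. The groups did not overlap, as was true of 1.25% of all probe sets that were lower, and Pycard fell by 0.99 (SE 0.212, limma adjusted p = 0.0382), where 0.269% of all probe sets were called higher and 0.357% lower. The call held without 3 of the 10 mice, namely dexamethasone mouse A and saline mice C and D, and was lost without any of the other 7 (adjusted p up to 0.14). In both agents against arsenite the lists had 0 higher and 1 lower, Relb, a subunit of NF-kB. Relb measured 5.79, 5.97, 6.31, 6.04 and 6.07 with both agents and 6.84, 6.32, 6.44 and 6.82 with arsenite. It fell by 0.57 (SE 0.127, limma adjusted p = 0.0469), with no overlap between the groups, where 0.32% of all probe sets were called higher and 0.302% lower, and 2.4% were lower without overlap. Without any 1 of the 9 mice the adjusted p lay between 0.0502 and 0.205. The other planned comparisons called 0 of the 58.

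The pooled dexamethasone comparison called 1 partner gene higher and 8 lower of 58, where 1.27% of all probe sets were higher and 2.04% lower. Among 11 measured genes of the inflammasome and of processing, 4 fell: Mefv, the pyrin sensor, by 1.25 (limma adjusted p = 0.0101), Pycard by 0.79 (adjusted p = 0.00593), Naip5, which senses bacterial flagellin, by 0.74 (adjusted p = 0.0252), and Gsdmd, the pore former cut by caspase-1, by 0.27 (adjusted p = 0.03). Of 10 measured NF-kB genes, Relb fell by 0.40 (limma adjusted p = 0.0134) and Nfkb2 by 0.38 (adjusted p = 0.0154). Of 7 measured other ligands and receptors, Il18rap, the accessory chain of the interleukin-18 receptor, fell by 0.82 (limma adjusted p = 0.0408), and of 14 genes induced by interleukin-1, the adhesion molecule Vcam1 fell by 0.52 (adjusted p = 0.0395). Of 16 measured genes of receptor signalling, Irak2, a kinase of the receptor complex, rose by 0.30 (limma adjusted p = 0.039). The calls of Pycard, Mefv, Relb and Nfkb2 held without any 1 of the 19 mice, those of Naip5 and Gsdmd held in 14 of 19 such fits, and those of Vcam1, Irak2 and Il18rap in 7, 7 and 6. Neutrophil genes averaged 7.63 with both agents and 7.42 with dexamethasone, against 8.53 with arsenite and 8.18 with saline, and the part of neutrophils and monocytes, which express several of these genes, was not tested.

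LRD mice were compared to ask how 5 weeks of As act on this diet. The antagonist Il1rn was higher in all exposed LRD groups than in LRD controls on its brightest probe set, the cytokine Il1b was higher at 10 ppb in food and at 100 ppb in water, and neither passed the threshold. Il1rn measured 6.34, 6.47, 6.26, 5.94 and 6.56 at 10 ppb in food and 5.99, 6.04, 5.83 and 5.67 in controls. Only the lowest food mouse lay within the control range, and the change was 0.43 (SE 0.15, limma adjusted p = 1, exact permutation p = 0.0317). Along the doses in water, Il1rn averaged 5.88 ± 0.17 in controls, 6.22 ± 0.31 at 10 ppb and 6.19 ± 0.18 at 100 ppb (SD, 4, 4 and 3 mice), and the changes were 0.34 (limma adjusted p = 0.998) and 0.31 (limma adjusted p = 1.0). All 12 exposed LRD mice lay above the control mean, and with exposures pooled, a comparison added after the values were seen, the change was 0.36 (SE 0.13, limma adjusted p = 1.0, exact permutation p = 0.0148). The other Il1rn probe sets gave other values: with exposures pooled, the one of mean 4.32 differed by 0.13 and the one of mean 6.13 by -0.13. At 100 ppb in water the probe set of mean 6.13 was lower without overlap (change -0.26, exact permutation p = 0.0286, the smallest that 35 divisions allow). Monocyte and macrophage genes averaged 8.93 to 9.32 at 10 ppb in food, and along the doses in water 8.94 to 9.04 in controls, 9.08 to 9.27 at 10 ppb and 9.02 to 9.23 at 100 ppb. The 10 ppb water mice did not overlap the controls in these genes, whose part in the Il1rn values was not tested.

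Il1b in LRD mice measured 8.61, 9.78, 9.73, 7.97 and 8.33 at 10 ppb in food and 7.98, 7.48, 8.63 and 7.79 in controls. In water it measured 8.29, 8.28, 7.28 and 9.37 at 10 ppb and 8.89, 9.04 and 8.99 at 100 ppb. The 100 ppb mice were close together and all above the controls, while the food and 10 ppb groups overlapped them. The changes were 0.91 in food (SE 0.398, limma adjusted p = 1, exact permutation p = 0.127), 0.33 at 10 ppb in water (SE 0.42, limma adjusted p = 0.998, and -0.02 without mouse E, which measured 9.37) and 1.00 at 100 ppb in water (SE 0.454, limma adjusted p = 1.0, exact permutation p = 0.0571). At 100 ppb, 2.96% of all probe sets were higher without overlap and 1.59% lower, and of the 16 members 1 was higher (Il1b) and 1 lower (the Il1rn probe set of mean 6.13). Within batches that held both groups, Il1b was higher at 10 ppb in food in 3 of 3 and at 100 ppb in water in 2 of 2. At 10 ppb in water only 1 batch held both groups, through mouse E, and Il1b was higher there by 1.39. The other mice of that group lay in batches without LRD controls. For them batch and exposure cannot be told apart, in Il1b or in Il1rn. Neutrophil genes averaged 6.38 to 7.97 at 10 ppb in food and 6.84 to 7.30 in controls, and 6.24 to 7.64 at 10 ppb and 6.94 to 7.82 at 100 ppb in water.

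**Figure D4:**
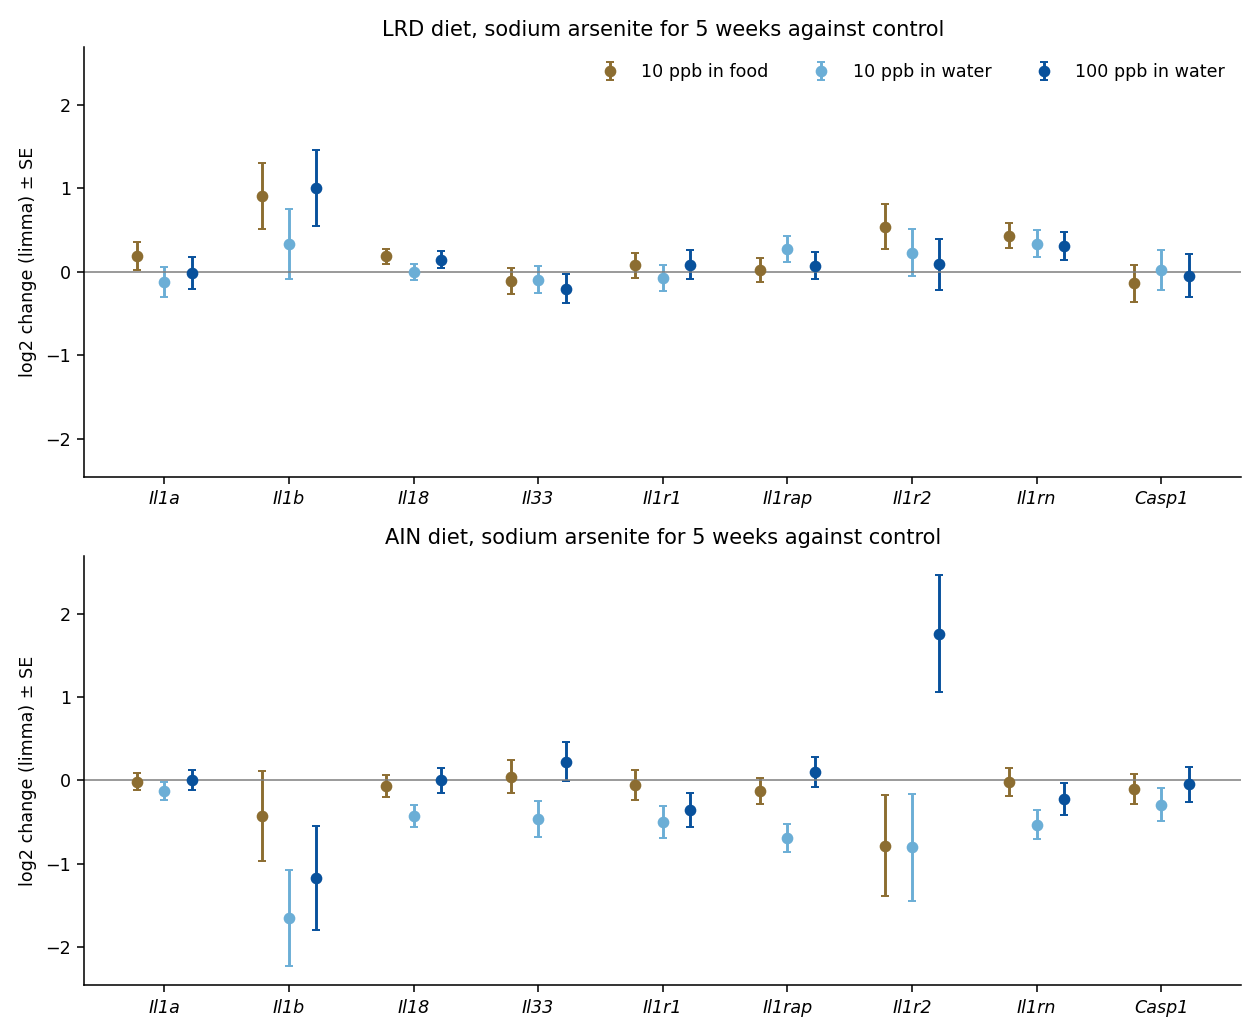
Limma log2 changes (points) with their SE (bars) of the 9 genes after 5 weeks of sodium arsenite at 10 ppb in food, 10 ppb in water and 100 ppb in water, each against the control of the same diet, in LRD mice (upper panel) and uninjected AIN-76A mice (lower panel). Il1b lies at 0.91, 0.33 and 1.00 in the 3 LRD exposures, of which the 0.33 rests on 1 mouse, and below 0 in all 3 AIN-76A exposures; no change passed the adjusted threshold.

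Among the other members, Il1r2 had the widest difference in LRD mice. It measured 5.24, 6.36, 6.37, 4.91 and 5.46 at 10 ppb in food and 5.20, 5.16, 5.10 and 5.05 in controls, so the exposed mice were spread and the controls were not (change 0.54, higher in 3 of 3 batches, exact permutation p = 0.206). Il18 was higher by 0.19 at 10 ppb in food (9.09 ± 0.10 and 8.90 ± 0.13, SD, n = 5 and 4, exact permutation p = 0.0476), and Il33 was lower by 0.20 at 100 ppb in water, within its spread. Limma called 0 of 16 members in each LRD comparison and 0% of all probe sets. At an unadjusted p under 0.05, 2 members were higher and 0 lower at 10 ppb in food, where 1.57% of all probe sets were higher and 1.04% lower. At 10 ppb in water 1 was higher and 0 lower (1.56% and 2.12%), and at 100 ppb in water likewise 1 and 0 (2.33% and 1.21%). The median change of the 9 genes was 0.19 in food, where that of all probe sets was 0.00935, 0.02 at 10 ppb and 0.09 at 100 ppb in water, where those of all probe sets were 0.006 and 0.00558. Over all 16 member probe sets the medians were 0.0091 in food, 0.033 at 10 ppb and -0.026 at 100 ppb in water, with both signs present. Of the 58 partner genes measured, 0 were called in any LRD comparison.

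Between the diets, the LRD controls had lower values of Il1b and Il1rn than the AIN-76A controls, though neither passed the threshold. LRD controls measured 7.98, 7.48, 8.63 and 7.79 for Il1b, against 8.51, 10.55, 9.06, 10.67 and 10.11 in AIN-76A controls. Only 1 LRD mouse reached the AIN-76A range, and the difference was -1.81 (SE 0.525, unadjusted p = 0.00177, limma adjusted p = 0.839, exact permutation p = 0.0318). Il1rn differed by -0.58 (SE 0.169, limma adjusted p = 0.839, exact permutation p = 0.0238), and both were lower in 3 of 3 shared batches. The Il1rn probe set of mean 6.13 did not share this difference, with 6.19 in LRD and 6.16 in AIN-76A controls, and was higher in LRD controls in 2 of 3 batches. Monocyte and macrophage genes averaged 8.94 to 9.04 in LRD controls and 9.06 to 9.47 in AIN-76A controls, without overlap, and their part in the differences was not tested. Over all 16 LRD and 17 AIN-76A mice, Il1r2 was lower on LRD by 0.79 (a difference of -0.79 with each exposure weighted equally, SE 0.276, limma adjusted p = 0.824) and lower in 5 of 5 batches, and Il33 was higher by 0.27 (SE 0.102, limma adjusted p = 0.964). Il1r2 averaged 5.37 ± 0.46 in LRD mice and 5.98 ± 1.36 in AIN-76A mice (SD), among which AIN 100 ppb water mice reached 10.19. Without AIN 100 ppb water mouse A the difference of Il1r2 was -1.06 (limma adjusted p = 0.038), and without mouse C of the same group, which had the 10.19 and a neutrophil mean of 10.12, it was -0.50 (limma adjusted p = 1). Limma called 0.16% of all probe sets between the diets over all exposures, 0.0111% between the controls, and 0 members in either.

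Exposed against control, Il1b differed in sign between the diets, apart from LRD 10 ppb water without mouse E. In AIN-76A mice Il1b was lower at 10 ppb in water (7.86, 8.28, 8.56 and 7.81, against the control values given above; change -1.65, SE 0.573, limma adjusted p = 0.492, exact permutation p = 0.0318), as it was at 10 ppb in food (change -0.43) and at 100 ppb in water (change -1.17, with mice at 8.06, 6.98 and 10.79). The change with any As in LRD minus that in AIN-76A mice was 1.83 for Il1b (SE 0.618, unadjusted p = 0.00606, limma adjusted p = 0.991) and 0.62 for Il1rn, a comparison added after the values were seen. It rests on the same control mice in which Il1b of LRD minus AIN-76A was -1.81. At 10 ppb in water on AIN-76A, 8 of 16 member probe sets were lower at an unadjusted p under 0.05, where 6.75% of all probe sets were lower, 0 were higher, where 3.04% were, and 0 were called, as were 0% of all probe sets in each AIN-76A exposure and in each difference between the diets. Il1rap led them, with 5.51 ± 0.39 in exposed mice and 6.20 ± 0.13 in controls (change -0.69, SE 0.165, limma adjusted p = 0.492), and passed without mouse C of the exposed group (change -0.85, limma adjusted p = 0.0304). The difference between the diets in the 10 ppb water change of Il1rap was 0.96 (limma adjusted p = 0.381), and 1.13 (limma adjusted p = 0.0145) without that mouse. Of the 4 exposed mice, mouse A was high in skeletal muscle genes (9.88) and fat genes (10.69), and mouse E in thymus and T cell genes (10.24) and fat genes (9.14). Endothelial genes averaged 9.53 in A and 9.20 in E, against 10.57 in C and 10.44 in D, and Il1rap measured 5.09 and 5.33 in A and E, against 6.00 in C and 5.63 in D. Without mice A and E together, an alternative added after the values were seen, the change was -0.39 for Il1rap (limma adjusted p = 0.855), -1.36 for Il1b (0.855), -0.20 for the Il1rn probe set of mean 6.13 (0.899) and -0.11 for Il1r1 (0.909). The difference between the diets was then 0.66 for Il1rap (limma adjusted p = 0.513). The part of these tissues in the values was not tested.

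The saline injection itself was set against the uninjected AIN-76A controls. Il1r2 was higher by 1.12 and Il1b lower by 0.40 in saline mice (a change of -0.40), both within their spread. Il1a was lower by 0.27 (a change of -0.27, limma adjusted p = 0.999, exact permutation p = 0.0318). Limma called 0 of 16 members and 0% of all probe sets.

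Across the 52 mice, levels of the members ran together with genes of particular cells. Pearson's r between Il1r2 and the mean of neutrophil genes was 0.861, and 0.827 after group means were taken off. For Il1rn and monocyte and macrophage genes it was 0.681, for Il18 and the same genes 0.666, and for Il33 and alveolar type II genes 0.614. After group means were taken off, these were 0.692, 0.637 and 0.547. Il1b gave 0.569 with monocyte and macrophage genes and 0.446 with neutrophil genes, and 0.739 with Il1rn. With group means taken off, these fell to 0.417, 0.329 and 0.691. Some r were negative: Il1rap gave -0.694 with B cell genes and -0.576 with fat genes. With fat genes Il1rn gave -0.544 and Il18 -0.473, and Il18 gave -0.471 with heart muscle genes. The genes most like Il1r2 were Mmp8 (r 0.945), a neutrophil collagenase, Stfa2l1 (0.89) and Ceacam10 (0.883). Those most like Il1b were Csf3r (0.829), the receptor for granulocyte colony-stimulating factor, then Il1rn and Mefv (0.733), and those most like Il33 were Lyz2 (0.737), Napsa (0.705) and Sftpa1 (0.676), the last 2 being alveolar type II genes. These genes were named after their values were seen. All r are over 52 arrays that share groups, batches and normalization, and are given as descriptions.

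**Figure D5:**
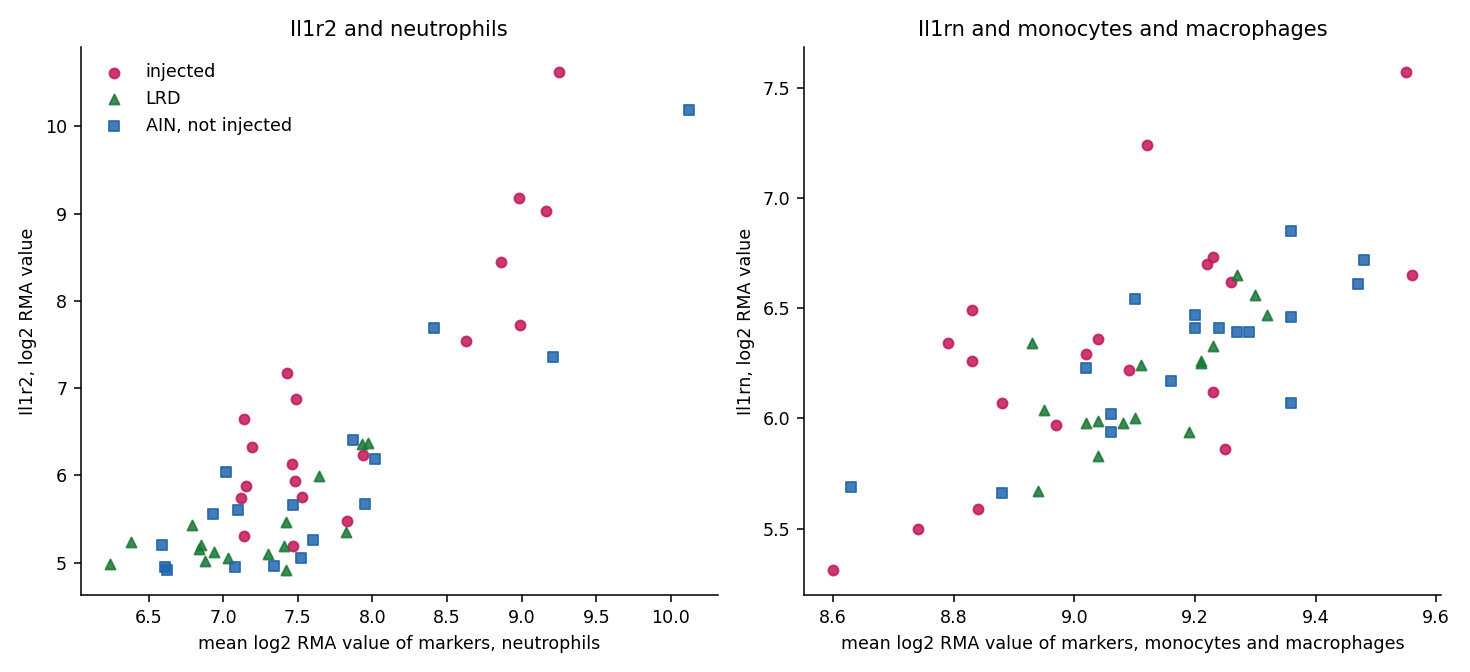
Left, Il1r2 against the mean of neutrophil genes; right, Il1rn against the mean of monocyte and macrophage genes, both in log2 RMA values, with 1 point per mouse for 52 injected (circles), LRD (triangles) and uninjected AIN-76A (squares) mice. Il1r2 follows the neutrophil genes (r 0.861), whose mean is under 8 in every LRD mouse, and Il1rn follows the monocyte and macrophage genes (r 0.681).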

How the data were processed

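The authors processed the arrays of 55 mouse lungs with RMA, and the deposited values are log2 intensities per probe set. The study left out 1 AIN-76A array at 100 ppb in water for RNA degradation. A genome build is not given in the sources used here. Groups came from the sample labels. The 64 control probe sets among 45101 were dropped. The other 45037 were fitted with limma 3.58.1 (R 4.3.3), with a mean per group, in separate fits for injected, LRD and uninjected AIN-76A mice, a joint fit of both diets, and a fit of all AIN-76A mice for saline against uninjected controls, with Benjamini-Hochberg adjustment over all of them and a threshold of 0.05. For single genes, two-sided exact permutation tests ran over the mice. The rank product test of the study's methods was not used. Tables and figures were made with Python 3.11.15, numpy 2.4.6, pandas 2.3.3 and matplotlib 3.10.9, and the limma step was tested on simulated data. Depth has no meaning for arrays; their number limits the precision.

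All 10 family members were to be named, each by its brightest probe set, together with up to 4 genes of each partner list that passed. Members and lists were chosen with earlier results of these data known, so counts over them are descriptions. Il1rl1 was not analysed here. Array batches are the 5 prefixes of the raw array file names in the labels. Alternatives were a filter on dim probe sets (log2 above 5 in 4 arrays), quantile normalization, median centring, weighting of arrays, a trended variance prior, a block for array batch or for replicate letter, 1 model over 52 arrays, the 3 arrays of low quality added back, and each mouse left out in turn. Pooling by dexamethasone, pooling the LRD exposures, leaving out AIN 10 ppb water mice A and E together and the difference of pooled exposures between diets were added after the data were seen. P-values measure the spread between mice as labelled.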

Additional observations from a re-analysis of the deposited data

Results flagged for a closer look

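In 6 of 90 groups of a gene, 1 mouse stood far from the rest by Dixon's criterion, which chance meets in about 1 in 20 groups. Il1r2 was 10.62 in dexamethasone-plus-arsenite mouse A, against 5.31 to 6.65 in the others. Il18 was 8.26 in dexamethasone-plus-arsenite mouse E (others 8.90 to 9.08), 8.50 in saline mouse D (others 8.90 to 9.00) and 9.27 in LRD 10 ppb food mouse C (others 9.03 to 9.06). In AIN 10 ppb water mice, Il1a was 4.20 in mouse C (others 3.73 to 3.79) and Casp1 was 5.72 in mouse D (others 6.55 to 6.61).

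Each of the 3 arrays that were left out held a member above its control mice. With 9 genes and only 4 or 5 control mice such a value is not unusual in any array, so these are descriptions. Il1r2 was 5.75 in LRD 10 ppb water mouse C, against 5.05 to 5.20 in LRD controls, and 10.63 in AIN 100 ppb water mouse B, against 4.92 to 7.36 in AIN-76A controls. Il1a was 4.55 in arsenite injection mouse E, against 3.44 to 3.90 in saline mice, on the array of lowest quality.

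In 2 cases every LRD mouse lay on one side of its control mean and every AIN-76A mouse on the other. For Il1rn at 10 ppb in water the change in LRD minus that in AIN-76A mice was 0.87 (limma adjusted p = 0.381), and for Il33 at 100 ppb in water it was -0.43 (limma adjusted p = 1). Neither difference passed the threshold. The share of all probe sets that met this rule was not counted, and groups this small can meet it without a difference, so the 2 cases are descriptions.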

How the results depend on the processing

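Of 49 changes with an unadjusted p under 0.05, tried under 1126 alternatives in all, 1 changed sign: the dexamethasone by arsenite interaction of Il33 was 0.0252 with the 3 arrays of low quality added back, against -0.45 without them. Of the alternatives of the other 287 changes, 8.82% of 6439 changed sign. Of 484 counts of called members, 461 were 0 and 16 were 1. The pooled dexamethasone comparison, with 1 member called, had 2 with the filter on dim probe sets (Casp1 and Il1b, the Il1rap probe set being filtered out), with array batch as a block, with array weights and with the trended prior, 3 with 1 model over 52 arrays (Il1rap, Casp1 and Il1b), and 0 with median centring (Il1rap at limma adjusted p = 0.0645) and with the 3 arrays of low quality. Quantile normalization also gave 1 call, but of Casp1 (limma adjusted p = 0.0458) and not Il1rap (0.0546). Dexamethasone against saline called 0, and pooled over both arms 1. Leaving out 1 mouse gave 0 to 2 calls in the pooled comparison, and 0 to 1 in both agents against arsenite, in AIN 10 ppb water against control, in LRD against AIN-76A and in the diet difference of 10 ppb water. In the pooled comparison Casp1 passed without arsenite mouse B, dexamethasone-plus-arsenite mouse F or saline mouse C or D (limma adjusted p from 0.0456 to 0.0486), and Il1b without arsenite mouse B (0.0131), dexamethasone mouse F (0.0466) or dexamethasone-plus-arsenite mouse D (0.0173).

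Mice that share a replicate letter did not deviate together: the median correlation of their deviations was -0.0514 in injected, -0.0348 in LRD and 0.0117 in AIN-76A mice, against 0.127, 0.199 and 0.206 for mice of 1 array batch. The letter therefore pairs nothing here. With it as a replicate block, the pooled dexamethasone comparison called 0 members, Il1rap at 0.48 (limma adjusted p = 0.144), and no other count of members changed. Of the partner genes, the block lost Pycard in dexamethasone against saline (limma adjusted p = 0.148) and Relb in both agents against arsenite (limma adjusted p = 0.161). In the pooled comparison it kept the calls of Pycard, Mefv and Nfkb2 and lost those of Relb (limma adjusted p = 0.0519), Naip5, Gsdmd, Irak2, Vcam1 and Il18rap. With the arrays of low quality added back, all 9 partner calls of the pooled comparison were lost (limma adjusted p from 0.253 for Il18rap to 0.837 for Gsdmd), as were Pycard in dexamethasone against saline (0.835) and Relb in both agents against arsenite (0.765). Calls were also lost with quantile normalization for Nfkb2 (0.0517) and Il18rap (0.053), with median centring for Vcam1 (0.0591), Irak2 (0.0559), Pycard in dexamethasone against saline (0.0512) and Relb in both agents against arsenite (0.0721), with the trended prior for Irak2 (0.0638), Gsdmd (0.0621) and Relb in both agents against arsenite (0.0695), and with 1 model over 52 arrays for the last (0.0976).

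Groups held 3 to 5 mice. Il1a and the dim Il1rap probe sets lie near the array's floor. The cause of these dependences was not tested.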
